A study of Mus musculus with 7 samples.

Results

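The cytosolic ribosome is built from a large and a small subunit, and the genes described here encode its proteins. Members were taken by name from the authors' deposited table of mouse genes: Rpl or Rps followed by digits and, at most, one of the letters a, x or l, together with Rplp0, Rplp1, Rplp2 and Rpsa, with pseudogene names (-ps) left out. The rule found 76 genes of 15548 in that table, 45 of the large and 31 of the small subunit, and each was joined by its identifier to the read counts of 7 libraries. The libraries were stranded mRNA-seq of mouse fetal liver. They came from 4 wild type embryonic samples (replicates 1 to 4) and 3 with a PCBP2 knockout (replicates 3 to 5), all taken at 12.5 days post coitum; Pcbp2 is a protein that binds cytosine-rich RNA. The labels give no further allele or treatment, no strain, and do not say whether a sample is 1 animal or a pool, so p-values here reflect only the sample-to-sample spread, which may be partly technical.

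A ribosome needs most of its proteins in equal numbers. They are encoded by genes scattered over many chromosomes and are among the most abundant mRNAs of a growing cell. Their transcripts are short and usually begin with an oligopyrimidine tract, the 5′ TOP, through which mTOR and LARP1 set their translation. Fetal liver is the main site of red cell production at this stage. In humans, mutation of 1 copy of several of these genes is the known basis of Diamond-Blackfan anaemia, a failure of red cell production in the bone marrow that appears in infancy.

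Between 31898339 and 44544889 reads per library were assigned to genes, and levels are given in CPM, the read count of a gene relative to the library's total after TMM scaling. Pcbp2 itself stood at 164.8, 329, 347 and 338 CPM in wild type and at 2.24, 1.39 and 2.22 CPM in knockout. All knockout libraries were far below all wild type libraries, but wild type replicate 1 was also well below the other wild type libraries, at 164.8 CPM against 329 to 347 CPM. Why it was lower was not tested. Without this library 2 members (2.63%) rather than 7 were called lower, against 2.26% of all tested genes. All 76 members passed the filter on low counts, which kept 16226 genes. Markers of other cells differed between the groups: 9 of 10 erythroid genes were called lower (summed level 49304 to 88231 CPM in wild type, 11681 to 15517 CPM in knockout), as were 6 of 7 macrophage genes (187.7 to 238 CPM against 113.8 to 137.7 CPM), and 3 of 6 endothelial genes were called higher (165.2 to 222 CPM against 227 to 301 CPM). The hepatoblast genes, Alb and Afp included, were present in all libraries (5964 to 12415 CPM in wild type, 7450 to 9429 CPM in knockout), and 0 of 9 were called by edgeR, with 1 lower at an unadjusted p under 0.05 and 1 by DESeq2. The median log2 fold change of the 9 hepatoblast genes was -0.30, and 7 were negative. The part of these shifts in the values of the ribosomal protein genes was not tested, and in whole tissue fewer cells of a type and less RNA per cell cannot be told apart.

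Most ribosomal protein mRNAs lay slightly below wild type in the knockout, and few of the differences passed the test gene by gene. The fitted log2 fold change of knockout against wild type was negative for 71 of 76 members, against 47.9% of all tested genes, and its median was -0.27 against 0.01 over all tested genes. At an edgeR adjusted p under 0.05, 7 members (9.21%) were called lower, where 3.43% of all tested genes were. None was called higher, where 1.59% of all tested genes were, and the same count of 0 came from an unadjusted p under 0.05, from DESeq2 and from limma-voom. At an unadjusted p under 0.05, 28 members were lower, against 11.8% of all tested genes. The authors' deposited table gives an adjusted p under 0.05 for 15 members, each with a negative log2 fold change, against 6.86% of the genes in that table.

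The wild type and knockout CPM ranges did not overlap for 36 members. In 35 of them (46.1% of the members) the knockout libraries were the lower ones, as for 10.8% of all tested genes, and in the case of Rps4x they were the higher ones, as for 9.83% of all tested genes. Members are abundant, and 74 of them were among the 1000 most abundant tested genes. Of the other 926 of these genes 6.37% were called lower, with a median log2 fold change of -0.01; the part of abundance in the members' calls was not tested.

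Knockout replicate 3 carried much of the difference. It was the lowest of the 7 libraries for 67 of 76 members. Relative to the wild type mean, the median member lay at -0.54 (log2) in knockout replicate 3, at -0.10 in replicate 4 and at -0.19 in replicate 5, while the wild type libraries lay between -0.03 and 0.05. The 3 knockout libraries were thus all below the 4 wild type libraries in this median, with replicate 3 far below the other two. That library also held more RNA of the 5 cardiac marker genes than the others (summed level 337 CPM, against 71.9 and 141 CPM in the other knockout libraries and 67.3 to 123 CPM in wild type). Of these markers 2 were called higher by edgeR, among them Myh6, at 37.9, 2.18 and 11.4 CPM in knockout and at most 0.782 CPM in wild type; their part in the member values was not tested. Without knockout replicate 3 the fit called 2 members lower, Rpl41 and Rps27l, and 62 log2 fold changes were negative. That is 2.63% of the members, where 2.92% of all tested genes were called lower in the same fit.

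**Figure D1:**
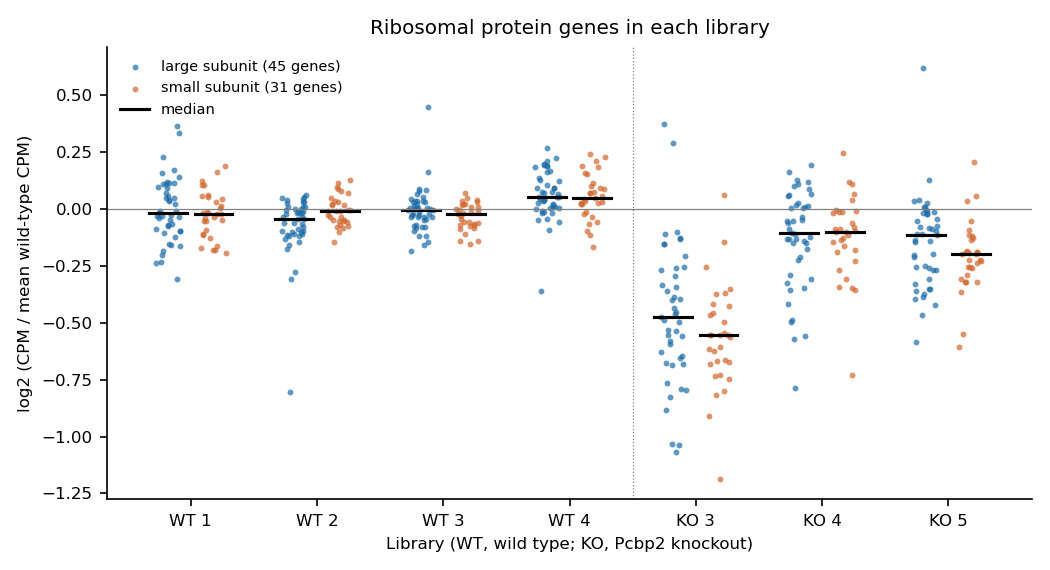
Each point is 1 ribosomal protein gene in 1 library, as log2 of its CPM over the mean wild type CPM, for 45 large subunit (blue) and 31 small subunit (orange) genes, with bars at the medians. The medians of knockout replicate 3 sit at -0.48 and -0.55, below those of every other library.

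The subunits differed little from each other. In the large subunit 42 of 45 fold changes were negative, with a median log2 fold change of -0.20 (quartiles -0.38 to -0.08). In the small subunit 29 of 31 were negative, with a median of -0.29 (quartiles -0.33 to -0.23), so the small subunit genes were the more tightly grouped ones and the large subunit genes reached further in both directions. Of the large subunit genes 5 (11.1%) were called lower and of the small subunit genes 2 (6.45%). The ranges of the groups were separate, with the knockout lower, for 17 large subunit genes (37.8%) and 18 small subunit genes (58.1%). By library, the large and small subunit medians were -0.48 and -0.55 in knockout replicate 3, -0.11 and -0.10 in replicate 4 and -0.12 and -0.20 in replicate 5, which puts the small subunit lower in 2 of 3 knockout libraries. Genes are not replicates of a condition, and the difference between subunits was not tested. Without knockout replicate 3 the medians were -0.10 and -0.16.

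The subunits' balance can also be read from the reads they take. Large subunit genes took 5.37%, 5.71%, 5.37% and 5.97% of assigned reads in wild type (5.60% ± 0.29, SD, n = 4) and 4.35%, 5.68% and 5.40% in knockout (5.14% ± 0.70, SD, n = 3). Small subunit genes took 3.75%, 4.19%, 3.82% and 4.22% in wild type (4.00% ± 0.25, SD, n = 4) and 2.95%, 4.04% and 3.72% in knockout (3.57% ± 0.56, SD, n = 3). In both subunits knockout replicate 3 was below all wild type libraries and the other two knockout libraries lay within or just below the wild type range. With globin reads left out of the total, replicate 5 was below all wild type libraries in both subunits, at 5.59% against 5.78% to 6.39% (large) and 3.86% against 4.11% to 4.52% (small), while replicate 4 stayed within the range. The ratio of large to small subunit reads was 1.43, 1.36, 1.405 and 1.41 in wild type and 1.47, 1.41 and 1.45 in knockout, and the groups overlapped.

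**Figure D2:**
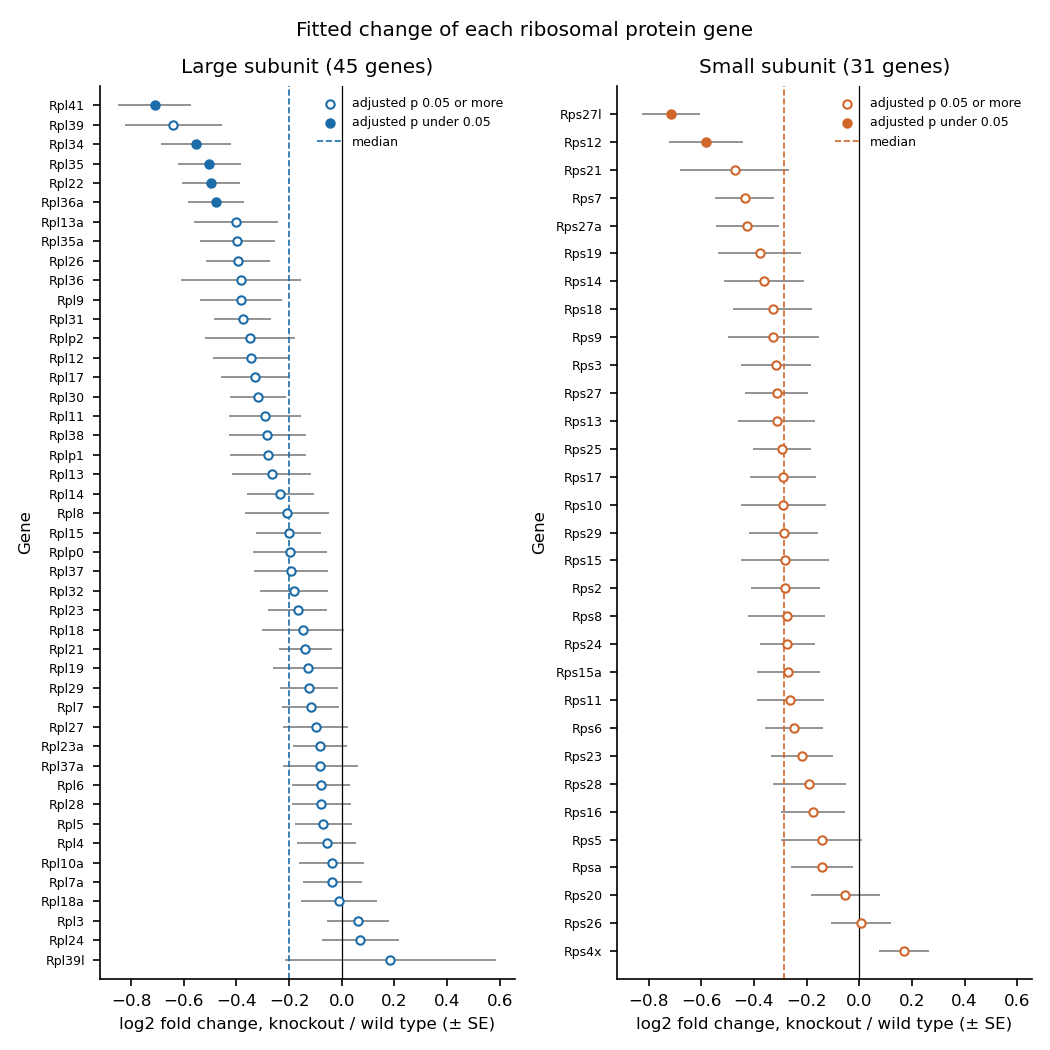
Fitted log2 fold change (knockout over wild type, ± SE) of each large subunit gene (left) and small subunit gene (right), with called genes filled and the subunit median dashed. Values run from -0.71 for Rps27l and Rpl41 to 0.18 for Rpl39l, and 7 genes are filled.

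Among small subunit genes the largest fall was that of Rps27l (chr9:66946086-66949516, plus strand, coordinates of GENCODE M21 on GRCm38), a close paralogue of Rps27 that is known as a p53 target. Its level was 419, 343, 370.2 and 339.9 CPM in wild type replicates 1 to 4 and 209, 222 and 242 CPM in knockout replicates 3 to 5. The highest knockout library was below the lowest wild type library, and the 3 knockout libraries lay close together. The log2 fold change was -0.71 ± 0.11 (SE), with an edgeR adjusted p of 0.00786. Rps27 itself had 1143, 1007, 1022 and 1085 CPM in wild type and 724, 908 and 935 CPM in knockout. These groups were also separate, but the log2 fold change of -0.31 ± 0.12 missed the threshold (edgeR adjusted p = 0.163), and whether the paralogues differ in their change was not tested.

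Rps12 (chr10:23785183-23787275, minus strand), a protein of the beak of the small subunit, was the other small subunit gene called. It stood at 1924, 2067, 1965 and 1869.8 CPM in wild type and at 1040.4, 1543 and 1338 CPM in knockout. All knockout libraries were below all wild type libraries, with replicate 3 the lowest by a wide margin. The log2 fold change was -0.58 ± 0.14, with an edgeR adjusted p of 0.0437. Its exons overlap those of the small nucleolar RNA genes Snora33 and Snord100 and of Gm23130 on the same strand.

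In the large subunit Rpl41 (chr10:128548114-128549305, minus strand), which encodes the smallest protein of the ribosome, fell most. Its levels were 2937, 2817, 2668 and 2863 CPM in wild type and 1373, 1916 and 1882 CPM in knockout. The groups were far apart and the wild type libraries close together. The log2 fold change was -0.71 ± 0.14, with an edgeR adjusted p of 0.0188.

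Rpl35 (chr2:39001580-39005624, minus strand) sits at the exit of the peptide tunnel. It had 1685, 1396, 1525 and 1512 CPM in wild type and 954, 1145 and 1140.2 CPM in knockout, a log2 fold change of -0.50 ± 0.12 (edgeR adjusted p = 0.0398). The groups were separate, with wild type replicate 1 the highest. Its exons overlap Arpc5l and Wdr38 on the opposite strand, and the strand setting of the counting was not given in the sources used here, so reads of these genes could not be told apart from its own. Rpl36a (chrX:134585654-134588062, plus strand), which contacts the tRNA leaving the ribosome at the E site, had 1026, 897, 1051 and 992 CPM in wild type and 676, 707 and 754 CPM in knockout. Its log2 fold change was -0.48 ± 0.11 (edgeR adjusted p = 0.0322), and the groups were again separate.

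Rpl22 (chr4:152325742-152334071, plus strand) is an RNA-binding protein needed for development of αβ T cells and is known to repress its own paralogue Rpl22l1. It had 1080.3, 927, 1026 and 969.95 CPM in wild type and 648, 708 and 772 CPM in knockout, a log2 fold change of -0.50 ± 0.11 (edgeR adjusted p = 0.0325). The paralogue Rpl22l1, which the name rule leaves out, had 797, 594, 665 and 572 CPM in wild type and 378, 434 and 479 CPM in knockout, with a log2 fold change of -0.61 ± 0.14 (edgeR adjusted p = 0.0366). Both genes of the pair were thus lower, with separate groups. Rpl34 (chr3:130726831-130730398, minus strand) had 1017, 1029, 1003 and 1068 CPM in wild type and 558, 803 and 745 CPM in knockout, a log2 fold change of -0.55 ± 0.13 (edgeR adjusted p = 0.0433). Its wild type libraries were the most even of the called genes, and knockout replicate 3 was well below the others.

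**Figure D3:**
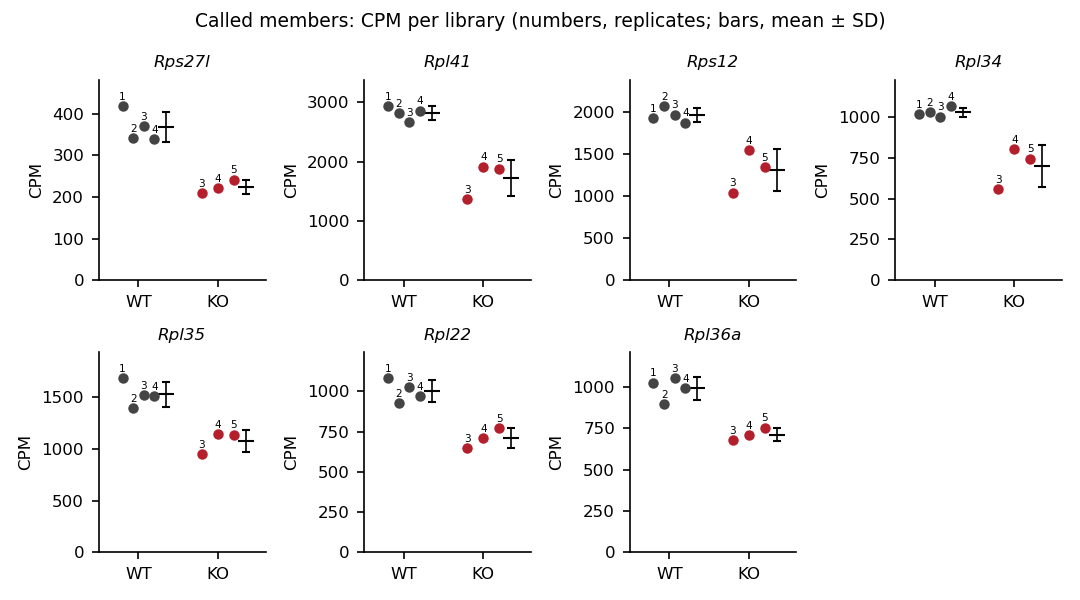
CPM of the 7 called ribosomal protein genes in each library (numbers are replicates, bars are mean ± SD, n = 4 wild type and n = 3 knockout, vertical axes from 0). In each panel the knockout points lie below all wild type points; for Rps27l they lie at 209 to 242 CPM under 339.9 to 419 CPM.

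The calls differed in how well they held when a setting was changed. Rps27l was called in all 17 alternatives run, with edgeR, DESeq2 or limma-voom adjusted p of at most 0.0426. Rpl41 was called in 15 of 17 and missed the threshold without knockout replicate 5 (edgeR adjusted p = 0.0748) and without wild type replicate 4 (0.0564). Rps12, Rpl34, Rpl35, Rpl22 and Rpl36a were each called in 9 of 17, and each was lost with the trend on gene length removed, with total-count scaling and in 6 of the 7 fits that left out 1 library. Leaving out knockout replicate 4 or 5 left 3 or 1 members called lower (3.95% or 1.32%, against 1.48% or 0.706% of all tested genes). Leaving out wild type replicate 1, 3 or 4 left 2, 2 or 1 (2.63%, 2.63% or 1.32%, against 2.26%, 1.78% or 2.02% of all tested genes). With wild type replicate 2 omitted 9 were called (11.8%, against 4.73%). DESeq2, which called 6.51% of all tested genes lower, called 15 members, the 7 of edgeR among them. With total-count scaling the median of all tested genes moved to 0.14, that of large subunit genes to -0.08 and that of small subunit genes to -0.16, and 59 members were negative, so both subunits stayed below the median gene there.

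**Figure D4:**
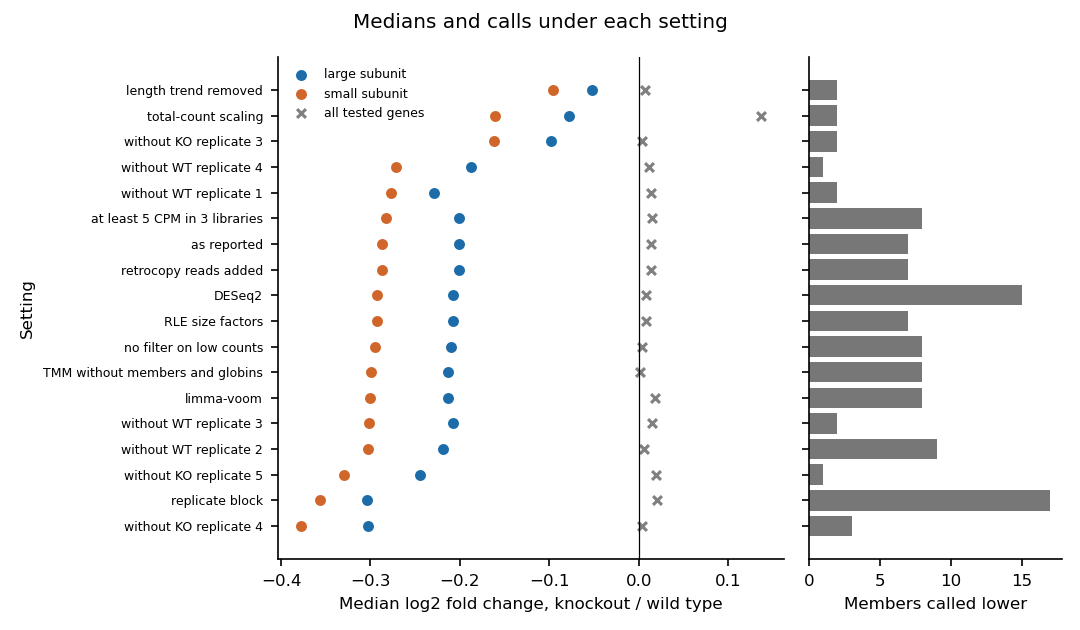
Left, median log2 fold change of large subunit genes (blue), small subunit genes (orange) and all tested genes (crosses) under each setting; right, the number of ribosomal protein genes called lower. Both subunit medians lie below 0 and below that of all genes throughout, from -0.30 to -0.05 (large) and -0.38 to -0.10 (small), while the count of calls runs from 1 to 17. The count of 17 is from the replicate block, where the knockout effect rests on replicates 3 and 4 of each group alone.

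The members that edgeR did not call included several with known roles. Rpl39, which lines the peptide exit tunnel, had 1909.6, 1252, 1489 and 1421 CPM in wild type and 741, 1021 and 1161 CPM in knockout. The groups were separate but wild type varied widely, and the log2 fold change of -0.64 ± 0.18 missed the threshold (edgeR adjusted p = 0.0751). Over the alternatives the adjusted p of Rpl39 ran from 0.00218 to 0.147, and it passed with DESeq2 (0.00662), without a filter on low counts (edgeR, 0.0338), with the replicate block (edgeR, 0.00218) and without wild type replicate 2 (edgeR, 0.0449). In the fit with the replicate block the knockout effect rests on replicates 3 and 4 of each group alone. The authors' deposited table gives Rpl39 an adjusted p of 0.00672. Its paralogue Rpl39l, known from testis, had 0.830 to 1.97 CPM in wild type and 0.838 to 2.22 CPM in knockout, and the groups overlapped (log2 fold change 0.18 ± 0.40, edgeR adjusted p = 0.828). Of the 7 proteins listed at the tunnel exit, edgeR called 1 lower, Rpl35, where 3.43% of all tested genes were. At an unadjusted p under 0.05, 5 were lower, against 11.8% of all tested genes. DESeq2 called 4 lower and limma-voom 1, where they called 6.51% and 3.2% of all tested genes lower. All 7 fold changes were negative, with a median of -0.38.

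The 5S ribonucleoprotein, formed by Rpl5 and Rpl11 with 5S rRNA, is the particle that binds Mdm2 when ribosome assembly fails. Rpl5 had 2268, 1953, 2065 and 2104 CPM in wild type and 1945, 1941 and 2111 CPM in knockout, and the groups overlapped (log2 fold change -0.07 ± 0.11, edgeR adjusted p = 0.749). Rpl11 had 1259, 1213, 1227 and 1486 CPM in wild type and 866, 1184 and 1129 CPM in knockout, separate by a small margin (log2 fold change -0.29 ± 0.14, edgeR adjusted p = 0.252). Neither gene passed the test, also at an unadjusted p under 0.05, with DESeq2 or with limma-voom. Mdm2 and Trp53 were in a list of control genes described further on.

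The stalk proteins Rplp0, Rplp1 and Rplp2 recruit elongation factors to the ribosome. Rplp2 had 498, 538, 535 and 571 CPM in wild type and 302, 540.3 and 419 CPM in knockout (log2 fold change -0.35 ± 0.17, edgeR adjusted p = 0.265). In this gene knockout replicate 4 was as high as wild type while replicates 3 and 5 were below it. Rplp1 and Rplp0 had log2 fold changes of -0.28 ± 0.15 (edgeR adjusted p = 0.294) and -0.20 ± 0.14 (edgeR adjusted p = 0.461), with overlapping groups. None of the 3 was called by edgeR, by DESeq2 or at an unadjusted p under 0.05.

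Of the 19 listed genes mutated in Diamond-Blackfan anaemia, 1 was called lower by edgeR, Rpl35, against 3.43% of all tested genes. At an unadjusted p under 0.05, 10 were lower, against 11.8% of all tested genes. DESeq2 called 5 lower and limma-voom 2, where they called 6.51% and 3.2% of all tested genes lower. The fold changes of 18 were negative, with a median of -0.29, close to that of all members. Rps7, Rpl31 and Rpl26, next in this list by p, had separate groups with the knockout lower. Their log2 fold changes were -0.44 ± 0.11, -0.38 ± 0.11 and -0.39 ± 0.12 (edgeR adjusted p = 0.0532, 0.0760 and 0.0923). DESeq2 called each of them, and limma-voom called Rps7 (adjusted p = 0.0361). Rps19, the gene most often mutated in that disease, had 948, 1104, 965 and 1032 CPM in wild type and 582, 945 and 809.8 CPM in knockout. Its groups were separate only because knockout replicate 4 lay just under the lowest wild type library (log2 fold change -0.38 ± 0.16, edgeR adjusted p = 0.197). Rps26, another of them, was nearly level, at 669 to 823 CPM in wild type and 687 to 825 CPM in knockout (log2 fold change 0.01 ± 0.11, edgeR adjusted p = 0.980).

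Rps14, the gene within the deleted region of the 5q- syndrome, had 1395, 1437, 1313 and 1649 CPM in wild type and 873, 1279 and 1229 CPM in knockout (log2 fold change -0.36 ± 0.15, edgeR adjusted p = 0.197). Rps6, the substrate of the S6 kinases, had 1969, 1870.2, 1778 and 1716 CPM in wild type and 1415, 1609.6 and 1604 CPM in knockout (log2 fold change -0.25 ± 0.11, edgeR adjusted p = 0.220). Both had separate groups, by narrow margins, and neither passed the test. Rpsa, also known as the laminin receptor precursor, ranged from 2393 to 2614 CPM in wild type and from 1943 to 2474 CPM in knockout, with overlap (log2 fold change -0.14 ± 0.12, edgeR adjusted p = 0.524).

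A positive log2 fold change was fitted for 5 members, and none passed the test. Rps4x, an X-linked gene, had 434, 434, 459 and 452 CPM in wild type and 464, 527 and 512 CPM in knockout. It was the member in which every knockout library was above every wild type library, with a log2 fold change of 0.17 ± 0.09 (edgeR adjusted p = 0.325). Its autosomal retrogene Rps4l, deposited under another name and so no member, overlapped between groups (log2 fold change 0.11 ± 0.16, edgeR adjusted p = 0.721). Rpl3, which lies near the peptidyl transferase centre, had a log2 fold change of 0.06 ± 0.12 (edgeR adjusted p = 0.802) with overlapping groups.

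One member is not what its name says. The identifier deposited as Rpl24 belongs in GENCODE M21 to the zinc finger gene Zbtb11, and it stood at 26.0 to 35.9 CPM in wild type and 28.9 to 39.3 CPM in knockout (log2 fold change 0.07 ± 0.15, edgeR adjusted p = 0.818). The gene that this release calls Rpl24 is deposited in capitals, which the rule does not match, at 209 ± 9.02 CPM in wild type (SD, n = 4) and 207 ± 30.6 CPM in knockout (SD, n = 3), with a log2 fold change of -0.02 ± 0.11 (edgeR adjusted p = 0.946). Putting it in place of the other row left 5 large subunit genes called and the median at -0.20. Rpl10 and Rpl27a had counts but no matching name in the authors' table and were not analysed as members; their log2 fold changes were -0.08 (edgeR adjusted p = 0.754) and -0.18 (edgeR adjusted p = 0.420).

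Levels between genes were compared per length, as CPM per kilobase of the main annotated transcript. The median member had 1556 CPM per kilobase in the large and 1616 CPM per kilobase in the small subunit in wild type, and 1423 and 1406 CPM per kilobase in knockout. The highest large subunit levels in wild type were those of Rpl41 (6456 CPM per kilobase), Rpl26 (3051) and Rpl23a (3049), and the highest small subunit levels those of Rps12 (3960.5), Rps27a (3305), a fusion with ubiquitin, and Rps27 (3083). Rpl41 and Rps12, both called lower, thus led their subunits per length. At the low end were Rpl39l (2.63), Rpl37 (656) and Rpl28 (862) in the large subunit, leaving aside the row of Zbtb11, and Rps20 (322), Rps4x (456) and Rps27l (737) in the small subunit. The value of Rps20 rests on an annotated transcript of 3706 bases for a coding length of 357 bases. Reads aligned more than once are not in these counts, and their part in the order of the genes was not tested.

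The change went along with mRNA length. Leaving out the row of Zbtb11, the 25 members with the shortest main transcripts (271 to 560 bases) had a median log2 fold change of -0.33 and held 6 of the 7 called genes. The middle 25 (570 to 835 bases) had a median of -0.27, and the longest 25 (851 to 3706 bases) a median of -0.17 with the remaining call, Rpl35. The shortest members lay lowest in each knockout library, and the middle and longest were about level in replicate 4. The medians from shortest to longest were -0.65, -0.53 and -0.37 in replicate 3, -0.13, -0.09 and -0.09 in replicate 4 and -0.26, -0.19 and -0.12 in replicate 5. Across the 75 genes Spearman's rho between log2 fold change and length was 0.48 for the transcript and 0.40 for the coding part, given as a description, since all genes share the same libraries.

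Short mRNAs of other genes lay lower as well. Among protein-coding genes that are no members, the median log2 fold change was -0.34 for 188 genes in the shortest range, of which 16.5% were called lower, -0.21 for 457 genes in the middle range, of which 10.3% were, and -0.01 for 9187 genes in the longest range, of which 3.84% were. In knockout replicates 3, 4 and 5 the shortest of these genes lay at -0.51, -0.26 and -0.26. The fitted medians of members and other genes were thus close in the shortest range. Those of members were the lower ones in the middle range (-0.27 against -0.21) and in the longest (-0.17 against -0.01). By library the order varied in the shortest and middle ranges. In the shortest range members lay at -0.65, -0.13 and -0.26, above the other genes in replicate 4. In the middle range members lay at -0.53, -0.09 and -0.19 and other genes at -0.38, -0.15 and -0.18, so members were clearly lower only in replicate 3 and higher in replicate 4. In the longest range members lay at -0.37, -0.09 and -0.12 and other genes at -0.06, 0.01 and -0.02, so members were lower in each replicate. Lengths were alike in the shortest range (median 491 bases in members and 477 in other genes) but not in the longest (1109 and 2232 bases), so the longest range does not compare genes of equal length. With a smooth trend of level on length removed in each library, the medians of large and small subunit genes were -0.05 and -0.10. In that fit 57 of 76 members were negative, and Rpl41 and Rps27l remained called. These calls are 2.63% of the members, where 2.88% of all tested genes were called lower.

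**Figure D5:**
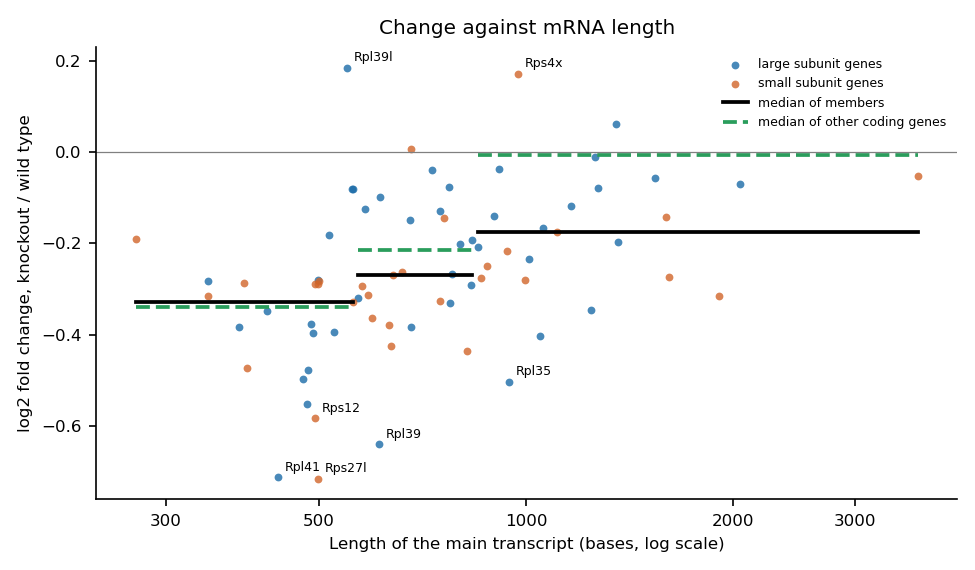
Fitted log2 fold change of 75 ribosomal protein genes against the length of the main transcript (bases, log scale), with the median of members (black) and of other protein-coding genes (green, dashed) in 3 length ranges. Both medians rise with length, from -0.33 to -0.17 in members and from -0.34 to -0.01 in other genes.

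Reads from retrocopies could enter these values, since ribosomal protein genes have many processed copies in the genome. Genes named -ps numbered 241 in the files, but they took 0.0110% to 0.0226% of assigned reads, and 36 of them passed the filter. None of the 36 was called by edgeR; at an unadjusted p under 0.05, 2 were lower and 11 higher, and DESeq2 called 1 in each direction. Adding their reads to the parent gene left the same 7 calls. Reads that aligned to more than 1 place, which such copies would produce, made up 15.2% to 19.6% of reads in wild type and 11.3% to 14.7% in knockout, and how they were shared between parents and copies could not be measured. Exons of 25 members overlap a gene on the same strand, mostly small nucleolar RNA genes, and those of 19 overlap a gene on the opposite strand.

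Other parts of the translation machinery were followed from further lists. Of 8 ribosomal protein genes outside the naming rule, Rpl22l1 was called lower, 7 fold changes were negative and the median was -0.13. Rack1, a scaffold on the small subunit deposited as Gnb2l1, had a log2 fold change of -0.03 ± 0.15 (edgeR adjusted p = 0.936).

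Of 20 other mRNAs known to begin with a 5′ TOP, mainly translation factors, 9 had negative and 11 positive log2 fold changes, with a median of 0.07. None was called by edgeR or limma-voom. At an unadjusted p under 0.05, 2 were lower and 2 higher. DESeq2 called 2 lower, where it called 6.51% of all tested genes lower. The lowest p was that of Tpt1, a short and abundant one, with 3623, 3008, 3005 and 3279.6 CPM in wild type and 2303, 2457 and 2596 CPM in knockout (log2 fold change -0.40 ± 0.12, edgeR adjusted p = 0.0807). Eif4b and Eif3f, which act in initiation, had log2 fold changes of 0.25 ± 0.10 (edgeR adjusted p = 0.169) and 0.22 ± 0.09 (edgeR adjusted p = 0.167). The median of this list was thus near that of all genes and above that of the ribosomal protein genes, a difference that was not tested.

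Of 40 ribosome biogenesis genes, 17 had negative and 23 positive fold changes, with a median of 0.03. None was called by edgeR or limma-voom, 1 was lower at an unadjusted p under 0.05 and DESeq2 called that number lower. It was led by Nip7, which acts in large subunit assembly (log2 fold change -0.35 ± 0.10, edgeR adjusted p = 0.0743). Of 20 RNA polymerase I genes, Polr2l, a small subunit shared by the nuclear RNA polymerases, was called lower, at 48.0, 49.3, 51.7 and 52.3 CPM in wild type and 27.5, 35.8 and 34.8 CPM in knockout (log2 fold change -0.62 ± 0.11, edgeR adjusted p = 0.0151). The other 19 were not called by edgeR, and the list's median was -0.04. DESeq2 called 2 of the list lower and limma-voom 1, and 3 were lower at an unadjusted p under 0.05.

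The list of 20 genes that control ribosomal protein transcription or TOP mRNAs, Mdm2 and Trp53 among them, had a median of 0.01. In this list edgeR and limma-voom each called 1 gene higher, and DESeq2 called 1 higher and 1 lower. Tia1, an RNA-binding protein that holds TOP mRNAs in a silent state under starvation, had 116.1, 107.3, 100.2 and 115.3 CPM in wild type and 156.0, 164.4 and 172.5 CPM in knockout. Its knockout libraries were all higher, with a log2 fold change of 0.58 ± 0.09 (edgeR adjusted p = 0.00742). Myc, an activator of ribosomal protein genes, had 45.0 to 59.4 CPM in wild type and 59.5 to 81.8 CPM in knockout, barely separate (log2 fold change 0.43 ± 0.14, edgeR adjusted p = 0.102). Gata1, the erythroid factor whose translation is known to depend on ribosome levels, had a log2 fold change of -0.67 ± 0.19 (edgeR adjusted p = 0.0707) with overlapping groups.

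Mitochondrial ribosomal protein genes, which encode a separate ribosome, also had mostly negative fold changes. Of 76 tested, edgeR called 3 lower, a share near the 3.43% of all tested genes, 60 had negative fold changes and the median was -0.16. At an unadjusted p under 0.05, 20 were lower, against 11.8% of all tested genes, and none was higher. DESeq2 called 10 lower and limma-voom 2, where they called 6.51% and 3.2% of all tested genes lower. Mrpl20 had 132, 114, 124 and 135 CPM in wild type and 85.5, 83.8 and 94.7 CPM in knockout (log2 fold change -0.52 ± 0.10, edgeR adjusted p = 0.0153). Mrpl41 and Mrps21 had log2 fold changes of -0.42 ± 0.09 (edgeR adjusted p = 0.0290) and -0.41 ± 0.10 (edgeR adjusted p = 0.0496). In this list knockout replicate 3 stood out less, with a median of -0.22 relative to wild type against -0.10 and -0.12 in the other two.

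Sequence at the annotated start was looked up in RefSeq on GRCm38 for 75 members, in windows of 300 bases of which 250 lie before and 50 after the start; 55 members matched, with 66 windows. The longest run of C and T on the gene's strand, between 20 bases before and 50 after the start, had a median of 10 bases in members and 6 bases in all 32851 windows. A run of at least 8 was found in 69.7% of member windows and 25.4% of all windows, and in 70% of the 10 windows of called members. The hexamer CTTTCC, which can lie inside such a run, was present on the gene's strand in that stretch in 28.8% of member windows and 3.24% of all windows. The letters CCGGAAG, an ETS factor core, were found on either strand of the 300 bases in 37.9% of member windows, 8.86% of all windows and 40% of windows of called members. CTTTCC near the start was found in 20% of windows of called members. These shares rest on 10 windows of 7 genes, and no difference between called and other members was tested.

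To let the starts of changed and unchanged genes be compared by eye, 30 bases around the longest run are printed for the 7 called genes and for 3 members whose fold change was nearest to 0 among those matched. Where a gene had several windows, the one with the longest run was taken. Capitals mark the longest run of C and T, and each sequence reads 5′ to 3′ on the gene's strand, from RefSeq on GRCm38.
Rps27l (chr9:66946066-66946095, plus strand): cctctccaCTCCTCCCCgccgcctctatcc
Rpl41 (chr10:128549119-128549148, minus strand): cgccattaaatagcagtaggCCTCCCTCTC
Rps12 (chr10:23787180-23787209, minus strand): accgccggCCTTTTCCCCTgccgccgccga
Rpl34 (chr3:130730333-130730362, minus strand): ctcacccgCCCCTTCCTTTTCCTCTTCCgg
Rpl35 (chr2:39005117-39005146, minus strand): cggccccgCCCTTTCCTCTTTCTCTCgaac
Rpl22 (chr4:152324418-152324447, plus strand): cagcgctgCTTCTggaatgttccagctccc
Rpl36a (chrX:134585673-134585702, plus strand): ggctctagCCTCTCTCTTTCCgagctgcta
Rps26 (chr10:128626482-128626511, minus strand): ccgccggaTCCTCTTTCgagtcttggctcc
Rpl7a (chr2:26910785-26910814, plus strand): ccccacaaTTCCCTCTTCTTTCTTTCTCCa
Rpl10a (chr17:28328574-28328603, plus strand): gcgctctgCCTTCTTTCCggtttccgcggc

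In the called genes the run was 9, 10, 11, 20, 18, 5 and 13 bases long, in the order printed, and in the 3 genes near 0 it was 9, 21 and 10 bases long. The 2 sets overlap: Rpl34, called lower, and Rpl7a, with a log2 fold change of -0.04 and not called, have the longest runs. The run of Rpl41 reaches the end of the stretch searched, and the RefSeq start of Rpl22 lies upstream of the start in GENCODE M21. The runs of Rpl36a and Rpl10a begin 27 and 17 bases after the annotated start. For Rpl41, Rps12, Rpl34, Rpl35, Rps26, Rpl7a and Rpl10a the RefSeq start lies downstream of the gene's start in GENCODE M21. For these and possibly other genes the printed stretch may not be the first bases of the mRNA.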

How the data were processed

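Per the labels, total RNA came from fetal liver by Trizol extraction, and libraries were TruSeq Stranded mRNA-seq. Per the submitters' processing notes, cutadapt 1.4.2, TopHat2, HTSeq, DESeq2 and DESeq were used on build mm10; settings, strand use and annotation release were not given in the sources used here. For each library the authors deposited raw read counts of 38924 genes. The authors' deposited table gives, for 15548 genes, a baseline signal (mean normalized count), a log2 fold change with its standard error, a Wald score, and the p-value with its adjusted form.

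Reads per gene were modelled with edgeR 4.0.16 (R 4.3.3): filterByExpr (16226 genes kept, 22698 removed), TMM, and a quasi-likelihood test with group as the only term over all 7 libraries, with calls at p under 0.05 after Benjamini-Hochberg adjustment over all tested genes. Errors are SDs over libraries for CPM and standard errors of the fit for log2 fold changes. In CPM, 3 reads correspond to 0.0662 to 0.102, a limit for counting error only. The fit was tested on simulated data. Lengths and coordinates came from the main transcript and gene of GENCODE M21 (GRCm38). Alternatives were RLE, total-count and TMM scaling without members and globins, other filters, limma-voom (limma 3.58.1), DESeq2 1.42.0, a replicate block, a length trend removed, and each library left out. Adding retrocopy reads and exchanging the Rpl24 row were chosen after seeing the data. Libraries within a group were compared by chi-square on their counts and none was a repeat of another.

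The members, the gene lists and the tests were chosen with earlier results of these data known. Values are given for called members, the 3 largest rises and falls, the 3 highest and lowest per length in each subunit, the stalk, 5S and paralogue genes, Rps19, Rps6, Rps14 and Rpsa, and up to 4 genes of each other list by smallest p; Rpl3, Rps26, Rpl7a, Rack1 and the rows outside the name rule were added after their values were seen. The values of 1 gene of these lists are not reported here. Of the listed paralogues, Rpl3l and Rpl10l had too few reads to test.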

Additional observations from a re-analysis of the deposited data

Results flagged for a closer look

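In 32 groups of 4 wild type values, that is 1 for each named gene or share, the highest or lowest library was compared with its neighbours by Dixon's ratio. Chance alone would single out about 1 in 20 such groups, and 2 were singled out. Rpl11 stood at 1486.28 CPM in wild type replicate 4, against 1213 to 1259 CPM in the other wild type libraries. Rps27a stood at 1900.47 CPM in wild type replicate 2, against 2159 to 2189 CPM in the others. In both genes the wild type library apart from the rest was still above all knockout libraries, whose highest values were 1184 CPM for Rpl11 and 1686 CPM for Rps27a.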

How the results depend on the processing

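RLE size factors, TMM without members and globins, both other filters, limma-voom and added retrocopy reads kept the counts of members called lower within 1.5 times and the medians within the replicate spread. In the order large subunit calls, small subunit calls, large median, small median, the values were 9 and 6 with DESeq2 (medians close to those reported), 1, 1, -0.052 and -0.10 with the length trend removed, and 1, 1, -0.078 and -0.16 with total-count scaling. Leaving out 1 library at a time gave 0 to 6 large and 1 to 3 small subunit calls, with medians from -0.30 to -0.10 and -0.38 to -0.16. Total-count scaling called 2.63% of members lower, against 2.42% of all tested genes. No setting called a member higher. With the replicate block the calls were 11 and 6 and the medians -0.30 and -0.36. There 22.4% of members and 7.42% of all tested genes were called lower. In that fit the knockout effect rests on replicates 3 and 4 of each group alone. Wild type replicates 1 and 2 and knockout replicate 5 have no partner and add nothing to it. Only 2 replicate numbers occur in both groups, and the correlations of their deviations were 0.40 and 0.39. Correlations between unequal numbers were not computed, so whether those of equal numbers are higher was not tested. No label ties equal numbers to a shared animal or day.

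With globin genes out of the total, shares were 6.03% (large) and 4.30% (small) in wild type and 5.29% and 3.67% in knockout. With reads aligned more than once in the total, they were 4.59% and 3.28%, and 4.41% for large subunit genes in knockout.

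Signs turned for genes near 0 that were not called: Rpl23a (0.15 with the length trend removed, 0.043 with total counts), Rpl28 (0.10 and 0.046 likewise; -0.17 to 0.0084 with 1 library left out, positive without knockout replicate 3), Rpl5 (0.056 with total counts), Rps20 (0.073 with total counts; -0.14 to 0.084 with 1 library left out, positive without knockout replicate 3), the row named Rpl24 (-0.052 to 0.17 with 1 library left out, negative without knockout replicate 3 or wild type replicate 2) and Rpl39l (-0.24 with the replicate block; -0.097 to 0.51 with 1 library left out, negative without knockout replicate 5 or wild type replicate 2). The cause was not tested. Depth limits Rpl39l, at no more than 2.22 CPM in any library, more than other members.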

Other observations

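Processed copies of ribosomal protein genes included 2 that were present or absent by library rather than by genotype. Rps3a3 (chr13:108670603-108671397, plus strand) had 47.0, 49.2 and 50.8 CPM in wild type replicates 1 to 3, but 0.00 CPM in wild type replicate 4 and at most 0.0302 CPM in the 3 knockout libraries. edgeR called it lower (adjusted p = 0.0219) although the groups overlap. Rps13-ps1 (chr8:87047689-87048226, plus strand) had 57.2 and 50.7 CPM in wild type replicates 2 and 3 and 42.4 and 53.9 CPM in knockout replicates 3 and 4, and at most 0.143 CPM in wild type replicates 1 and 4 and knockout replicate 5 (edgeR adjusted p = 0.945). Both were chosen after their values were seen, and what sets their presence was not tested.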
